A study of Danio rerio with 3 samples.

Results

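The genes described here belong to DNA replication in S phase and to mitosis. They were chosen from 46 symbols of cell cycle genes, matched by name in any case or in the capitals of the human symbol without the paralog letter, and 45 of the symbols were found in 47 of the 32057 gene records of each library. RNA-seq was performed on 3 populations sorted from the kidney of adult wild type zebrafish, the organ in which adult fish make their blood cells, with 1 library per population. These were *gata2a*+ *runx1*+ cells, called double-positive, *gata2a*- *runx1*+ cells, called *runx1* single-positive, and *gata2a*+ *runx1*- cells, called *gata2a* single-positive. All fish carried both the *gata2a:GFP* and the *runx1:mCherry* transgene, and + and - stand for the presence and absence of the fluorescence of each. In the same order, the labels name them HSCs, erythroid- and/or myeloid-primed progenitors, and lymphoid-primed progenitors. The mCherry gene is driven by a mouse *Runx1* enhancer that does not fully follow endogenous *runx1*, GFP also marks lymphoid cells and some myeloid cells of the kidney, and granulocytes were gated out by side scatter. The number of fish or cells behind a library is not given in the sources used here, and with 1 library per population no difference has a replicate check.

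A cell that is about to replicate its DNA loads the MCM helicase onto replication origins in G1 phase, with the help of *cdc6* and *cdt1*, and then activates it with *cdc45* and the GINS complex. DNA polymerases, their clamp PCNA, and the enzymes that supply nucleotides make up the rest of this machinery. Mitotic genes act later. Cyclin A and cyclin B activate CDK1, kinesins and other microtubule proteins build the spindle, checkpoint kinases watch the attachment of chromosomes, and the anaphase promoting complex ends mitosis by the destruction of cyclins. In vertebrate cells, transcripts of replication genes generally peak around the G1/S transition, those of mitotic genes in G2 and M phase, and both are low in resting cells.

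Values are RPM, a gene's reads divided by all gene-assigned reads of its library and scaled to a common total, and triplets are given in the order double-positive, *runx1* single-positive, and *gata2a* single-positive. Between 8094670 and 8205803 reads were counted per library, so that 3 reads, the floor used for detection, equal 0.366 to 0.371 RPM. Genes were tested if their mean over the 3 libraries was at least 1 RPM, which left 12339 genes and 45 of the 47 records. A gene was called over 2-fold from the ratio of its RPM, with 3 reads or fewer taken as 3 reads. A two-sided Fisher's exact test was also run on the reads of each gene, and its p was adjusted by the Benjamini-Hochberg method over every gene with a read in the pair of libraries. This test compares 2 libraries and not 2 populations. It calls smaller ratios in genes with more reads, whereas genes with few reads pass 2-fold more easily through counting error. The shares of all genes set beside the counts of the test and of the 2-fold limit were not matched for read number. Intervals are 95% intervals of counting error only. They and the test take each read as independent, but copies made by PCR are not independent molecules. Where reads are such copies, the intervals are too narrow and the p-values too small.

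Markers of other blood cells differed between the libraries. The summed RPM of stem and progenitor markers (6 of 6 found) was 828, 330, and 56.1, that of erythroid markers (7 of 9 found) 341, 3013, and 34.2, and that of B cell markers (7 of 7 found) 71.5, 13.4, and 2628. *gata1a* and *klf1* were at 0 in *gata2a* single-positive cells, and *pax5* and *ighz* were at 0 in both other populations. Thrombocyte markers (5 of 5 found) summed to 106, 999.9, and 64.4 RPM, macrophage markers (5 of 6) to 1397, 356, and 2447 RPM, neutrophil markers (6 of 7) to 327, 514, and 419 RPM, and T cell markers (4 of 6) to 3.45, 0.244, and 17.0 RPM. The library labelled as lymphoid-primed progenitors thus held most of the B cell marker reads. Single genes made up much of these sums. *slc4a1a* was at 2463 RPM in *runx1* single-positive cells and *ighm* at 2023 RPM in *gata2a* single-positive cells. *meis1b* was at 461 RPM in double-positive cells. Of the macrophage sums, *cd74a* alone made up 1366, 344, and 2402 RPM. These sums therefore reflect mainly 1 gene and were not taken as a measure of macrophages. *csf1ra*, *mfap4*, and *lygl1* were also highest in *gata2a* single-positive cells, whereas *marco* was highest in double-positive cells, at 17.0, 3.53, and 9.64 RPM. Neutrophil markers had no common order, with *mpx* at 106, 214, and 50.3 RPM, *npsn* at 183, 292, and 361 RPM, and *mmp9* at 36.6, 5.97, and 7.17 RPM. Of the thrombocyte markers, only *mpl* was highest in double-positive cells, at 5.91, 2.92, and 0.247 RPM. *cd4-1*, *cd8a*, and *lck* were at 0 in the *runx1*+ populations and had only 2, 7, and 2 reads in *gata2a* single-positive cells. The part of this cell type mixture in the differences described here was not tested. In bulk samples, fewer cycling cells and less RNA of these genes per cell cannot be told apart.

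All 47 records together took 1.30% of the reads in double-positive cells, 1.20% in *runx1* single-positive cells, and 0.630% in *gata2a* single-positive cells. The reads of replication genes and those of mitotic genes were not distributed alike over the libraries. Replication genes (the *mcm*, *pcna*, *rrm*, *pola*, *gins*, *cdc45*, and *cdc6* records) summed to 8523 RPM in double-positive cells (95% Wilson interval 8460 to 8587), 8661 RPM in *runx1* single-positive cells (8597 to 8724), and 4196 RPM in *gata2a* single-positive cells (4151 to 4240). Both *runx1*+ populations were therefore close to each other and above *gata2a* single-positive cells. This closeness held only with the *mcm* genes included. Without the *mcm* genes, replication genes had 19627, 16882, and 11854 reads, a stepwise order with double-positive cells highest. Mitotic genes summed to 3948 RPM (3906 to 3992), 2787 RPM (2751 to 2823), and 1675 RPM (1647 to 1703), which is a stepwise order of the libraries. These intervals do not overlap, but they hold counting error only and do not show that the populations differ. The 7 other S phase genes, which are *prim1*, *cdt1*, *rpa2*, *fen1*, *tyms*, *dut*, and *ccne2*, were at 569, 522, and 434 RPM, the smallest relative range of the 3 lists over all libraries, although the *runx1*+ populations were closer to each other in the replication genes.

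**Figure D1:**
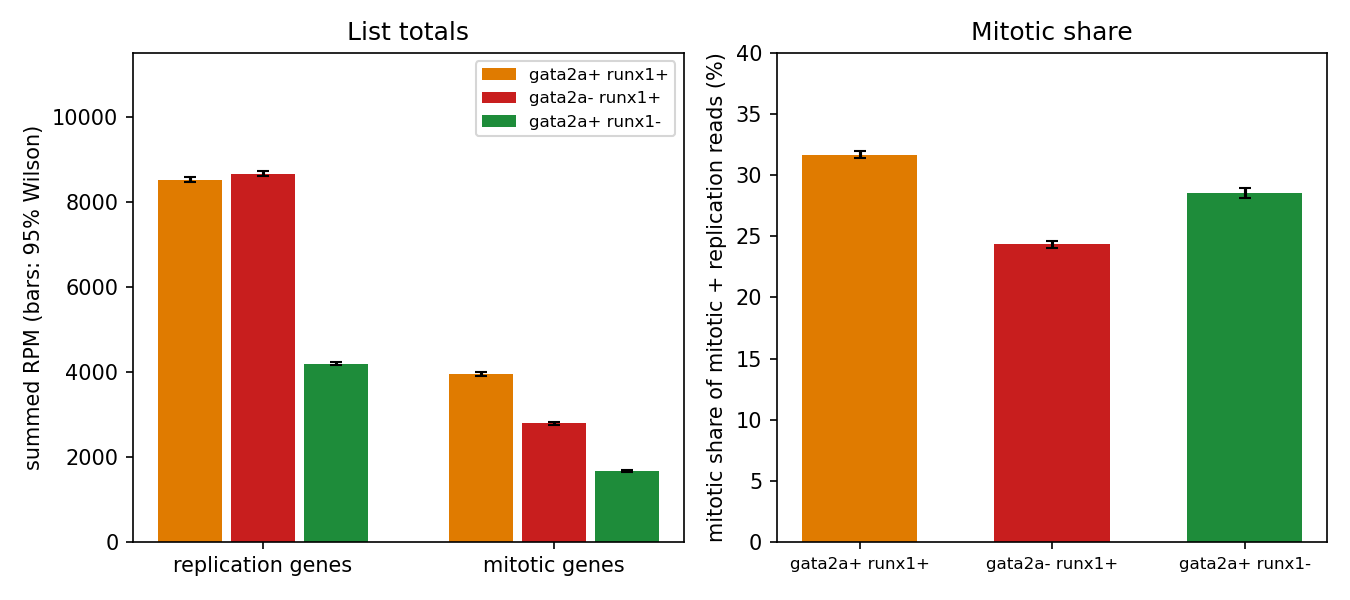
Summed RPM of the replication and the mitotic genes in each library (left) and the mitotic share of the reads of both lists, in percent (right). Each bar is 1 library and the error bars are 95% Wilson intervals of counting error. The replication bars of the *gata2a*+ *runx1*+ and *gata2a*- *runx1*+ libraries lie close together at 8523 and 8661 RPM, while the mitotic bars step down from 3948 to 2787 to 1675 RPM.

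Of the reads of replication and mitotic genes together, mitotic genes took 31.7% in double-positive cells (95% Wilson interval 31.4 to 31.9), 24.3% in *runx1* single-positive cells (24.1 to 24.6), and 28.5% in *gata2a* single-positive cells (28.1 to 28.9). The share was thus lowest in *runx1* single-positive cells. Long or abundant transcripts weigh more in such sums. Without *top2a*, the mitotic gene with the most reads, the shares were 27.0%, 20.9%, and 25.1%, in the same order. Without the *mcm* genes, they were 62.0%, 57.5%, and 53.3%, so that double-positive cells were again highest but *gata2a* single-positive cells were now lowest. The order of *runx1* single-positive and *gata2a* single-positive cells in this share thus held only with the *mcm* genes included.

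In the comparison of double-positive with *runx1* single-positive cells, replication genes were nearly level and mitotic genes were mostly higher in double-positive cells. The median log2 ratio of the 15 replication genes tested was -0.09, with 6 genes higher and 9 lower, and that of the 23 mitotic genes was 0.40, with 20 higher and 3 lower. The median of all genes tested was 0.06, and 55.8% of them were higher. Over 2-fold differences were rare. No replication gene and 1 mitotic gene (*nusap1*) were over 2-fold higher, against 20.9% of all genes, and 2 replication genes (*gins1* and *cdc6*) and 1 mitotic gene (*kif23*) were over 2-fold lower, against 12.7% of all genes. By Fisher's exact test at an adjusted p under 0.05, 6 replication and 18 mitotic genes were higher in double-positive cells, against 34.3% of all genes, and 6 replication genes and 1 mitotic gene were lower, against 26.7% of all genes. Of the mitotic genes, 21 of 23 lay above the median of the replication genes and 9 above every replication gene. *aurkb*, 1 of the 20 higher, was lower with TMM or DESeq2 scaling.

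Against *gata2a* single-positive cells, both groups of genes were higher in double-positive cells. The median log2 ratio was 0.97 for replication genes and 1.14 for mitotic genes, against 0.05 for all genes. Of the replication genes, 13 of 15 were higher and 7 were over 2-fold higher, and of the mitotic genes 22 of 23 were higher and 17 were over 2-fold higher, where 20.6% of all genes passed this limit. No gene of either group was over 2-fold lower, against 21.9% of all genes. Fisher's exact test called 12 replication and 22 mitotic genes higher, against 36.8% of all genes, and 2 replication genes, both of them *rrm2* records, lower, against 33.2%. The gap between the medians of the 2 groups was 0.17 on the log2 scale, smaller than the 0.49 in the comparison of both *runx1*+ populations.

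*runx1* single-positive cells compared with *gata2a* single-positive cells gave the reverse gap, with a median log2 ratio of 1.03 for replication genes and 0.88 for mitotic genes, against -0.02 for all genes. With the other S phase genes included, the replication median was 0.96. The reverse gap was not found in the further lists described below, with medians of 0.43 for replication and 0.59 for mitotic genes in this pair. Of the replication genes, 13 of 15 were higher and 8 over 2-fold higher, and of the mitotic genes 21 of 23 were higher and 10 over 2-fold higher, against 21.1% of all genes. None was over 2-fold lower, against 26.9% of all genes. By Fisher's exact test, 13 replication and 21 mitotic genes were higher, against 35.2% of all genes, and the 2 *rrm2* records and *cdc20* were lower, against 37.3%. The 3 comparisons share libraries, so that they are not independent of each other.

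**Figure D2:**
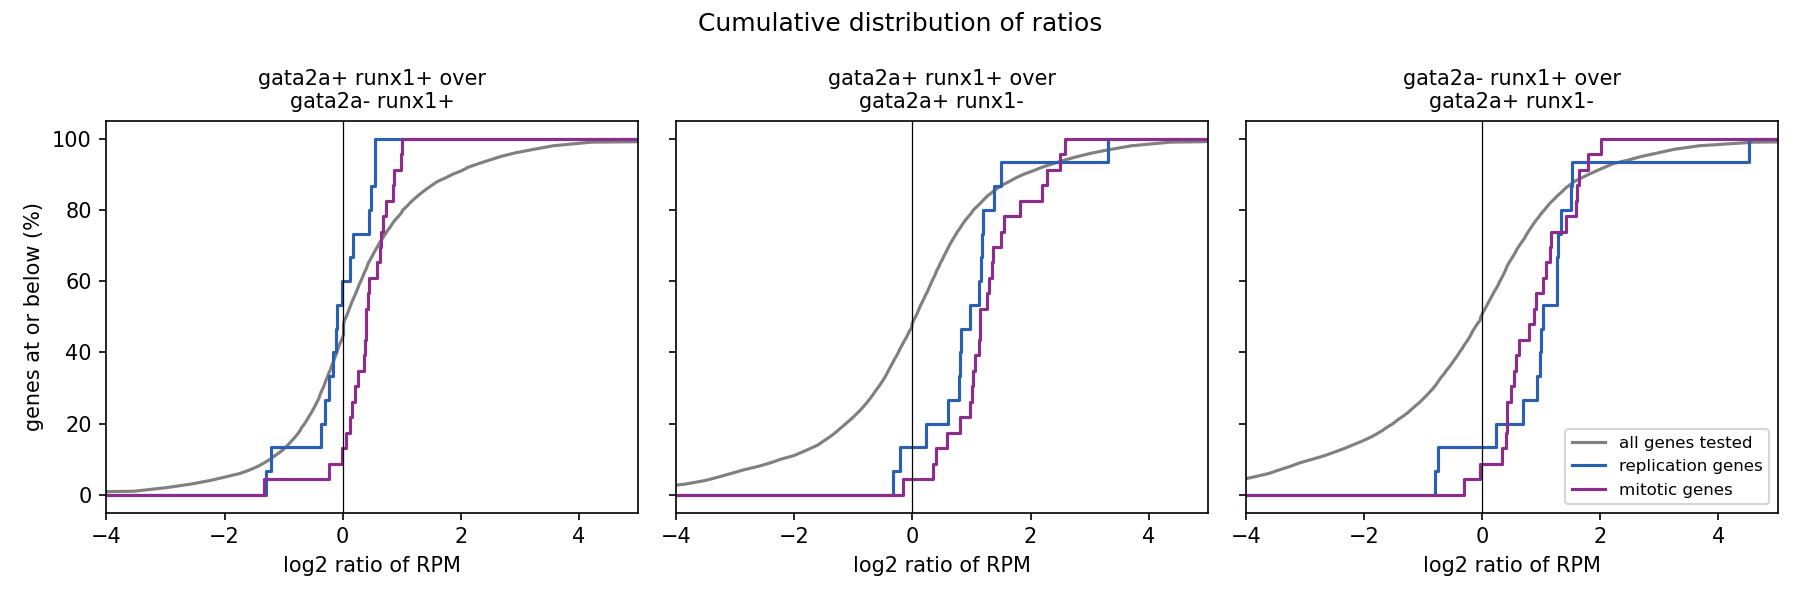
Cumulative distribution of the log2 ratio of RPM in each pair of libraries, for all 12339 genes tested (grey), the 15 replication genes (blue), and the 23 mitotic genes (purple). The vertical axis is the percentage of genes at or below a ratio. In the left panel the mitotic line lies to the right of the replication line around its median of 0.40. In the other panels both lines lie to the right of the grey line around their medians and cross it at higher ratios.

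The MCM2-7 helicase unwinds DNA at the replication fork, and its subunits gave similar ratios in each pair of libraries. *mcm2* (ENSDARG00000102798) was at 1238, 1392, and 569 RPM. *mcm6* (ENSDARG00000057683) was at 1049, 1297, and 459 RPM, and *mcm7* (ENSDARG00000101180) at 686, 611, and 242 RPM. In each of them *gata2a* single-positive cells were well below both *runx1*+ populations. The other subunits *mcm3*, *mcm4*, and *mcm5* were at 915, 976, and 404 RPM, 1224, 1319, and 550 RPM, and 995, 1008, and 507 RPM. Between double-positive and *gata2a* single-positive cells the 6 subunits spanned ratios of 1.96 (*mcm5*) to 2.83 (*mcm7*, 95% counting interval 2.69 to 2.98), and between *runx1* single-positive and *gata2a* single-positive cells of 1.99 (*mcm5*) to 2.83 (*mcm6*, 2.72 to 2.94). The adjusted p of *mcm7* in the latter pair was 8.38e-293 (Fisher's exact test), and those of *mcm2*, *mcm3*, *mcm4*, and *mcm6* against *gata2a* single-positive cells were below the smallest number that could be computed. Between both *runx1*+ populations the ratios of double-positive to *runx1* single-positive cells ran from 0.809 for *mcm6* (95% counting interval 0.786 to 0.832, adjusted p = 3.55e-47, Fisher's exact test) to 1.12 for *mcm7* (1.08 to 1.17, adjusted p = 1.91e-08). Thus 4 subunits were slightly lower, *mcm7* slightly higher, and a difference of *mcm5* was not detectable (adjusted p = 0.559, Fisher's exact test). These calls rest on RPM scaling. TMM and DESeq2 factors shifted all log2 ratios of this pair by -0.083 and -0.076. They moved *mcm7*, at 0.17, toward no difference. The other subunits, with *mcm3* at -0.09 and *mcm5* at -0.02, moved further below it. The test was not rerun with these factors. The shifts also apply to other small ratios of this pair, such as those of *pcna* and *ccnb1*. A further record named *mcm6* (ENSDARG00000033231) had 0, 2, and 1 reads and was not tested.

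Of the factors that load and activate the helicase, *cdc6* (ENSDARG00000009942), a loader of MCM at origins, was at 10.6, 26.0, and 9.02 RPM. It was over 2-fold higher in *runx1* single-positive cells than in either other population, with a ratio of double-positive to *runx1* single-positive cells of 0.408 (95% counting interval 0.318 to 0.524, adjusted p = 1.81e-12, Fisher's exact test) and of *runx1* single-positive to *gata2a* single-positive cells of 2.88 (2.21 to 3.75, adjusted p = 4.9e-16), whereas double-positive and *gata2a* single-positive cells did not differ detectably (1.17, 0.859 to 1.604, adjusted p = 0.452). *cdt1* (ENSDARG00000051854), which brings MCM to origins with *cdc6*, was at 53.9, 63.0, and 15.2 RPM, high in both *runx1*+ populations. It was 3.55-fold higher in double-positive cells (2.90 to 4.33, Fisher's exact test, adjusted p = 3.92e-41) and 4.15-fold higher in *runx1* single-positive cells (3.41 to 5.05, adjusted p = 3.39e-56) than in *gata2a* single-positive cells. *gins1* (ENSDARG00000007624), a GINS subunit, rested on few reads, with 30, 70, and 2 reads or 3.69, 8.53, and 0.247 RPM. The ratio of double-positive to *runx1* single-positive cells was 0.433 (0.282 to 0.664, adjusted p = 0.000284, Fisher's exact test). From the reads as counted, *gins1* was 14.9 times as high in double-positive cells as in *gata2a* single-positive cells, with an exact interval of 3.79 to 129, and 34.5 times as high in *runx1* single-positive cells, with an interval of 9.21 to 291. These wide intervals reflect the 2 reads in *gata2a* single-positive cells. The ratios of 9.96 and 23.0 that entered the counts take these 2 reads as 3. *gins2*, another GINS subunit, was at 9.60, 12.4, and 6.30 RPM, and *cdc45*, the partner of MCM and GINS in the active helicase, at 44.6, 52.2, and 25.6 RPM. Both had the same order as *gins1*, but neither differed detectably between the *runx1*+ populations (adjusted p = 0.156 and 0.0582, Fisher's exact test).

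DNA synthesis itself is begun by the polymerase alpha-primase complex. Its subunits *pola1* (ENSDARG00000045308), the catalytic polymerase, and *prim1* (ENSDARG00000040163), the primase, had an order unlike that of the helicase loaders. *pola1* was at 95.4, 70.2, and 36.8 RPM, with a ratio of double-positive to *runx1* single-positive cells of 1.36 (95% counting interval 1.22 to 1.51, adjusted p = 1.26e-07, Fisher's exact test) and of double-positive to *gata2a* single-positive cells of 2.59 (2.27 to 2.96, adjusted p = 5.62e-48). *prim1* was at 113, 82.7, and 49.9 RPM, with ratios of 1.37 (1.24 to 1.52) and 2.27 (2.02 to 2.56) in the same pairs. Both were thus highest in double-positive cells. *pcna* (ENSDARG00000054155), the sliding clamp, was at 1491, 1366, and 845 RPM, 1.09-fold higher in double-positive than in *runx1* single-positive cells and 1.77-fold higher in double-positive than in *gata2a* single-positive cells.

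Ribonucleotide reductase makes deoxyribonucleotides from a large subunit encoded by *rrm1* and a small subunit encoded by *rrm2*. *rrm1* (ENSDARG00000014017) was at 600.0, 409, and 348 RPM, with a ratio of double-positive to *runx1* single-positive cells of 1.47 (95% counting interval 1.40 to 1.53, adjusted p = 8.35e-65, Fisher's exact test). The 2 records named *rrm2* were at 83.6, 57.4, and 96.4 RPM (ENSDARG00000020711) and at 77.6, 55.9, and 97.2 RPM (ENSDARG00000078069), the only replication genes highest in *gata2a* single-positive cells. In double-positive cells they were above *runx1* single-positive cells by ratios of 1.46 (1.29 to 1.64, adjusted p = 1.97e-09, Fisher's exact test) and 1.39 (1.23 to 1.56, adjusted p = 4.69e-07). *runx1* single-positive cells were below *gata2a* single-positive cells by ratios of 0.596 (0.531 to 0.668, adjusted p = 1.29e-18, Fisher's exact test) and 0.575 (0.513 to 0.645, adjusted p = 6.83e-21). RefSeq gives *rrm2* as a synonym of more than 1 zebrafish gene, and reads of similar copies could have been split between these records. Of the genes of nucleotide supply outside this enzyme, *tyms*, thymidylate synthase, was at 74.0, 72.6, and 60.0 RPM, and *dut*, which removes dUTP, at 29.9, 31.2, and 29.8 RPM. *rpa2*, a subunit of the protein that coats single-stranded DNA, was at 85.4, 88.0, and 85.5 RPM, and *fen1*, a nuclease of lagging strand maturation, at 130, 121, and 115 RPM. These 4 genes were nearly level, with all ratios between 0.959 and 1.23. *ccne2*, a cyclin E of S phase entry, was at 81.7, 63.7, and 79.6 RPM and lowest in *runx1* single-positive cells (ratio of *runx1* single-positive to *gata2a* single-positive cells 0.801, 0.714 to 0.899, adjusted p = 0.000444, Fisher's exact test). The directions of *tyms*, *dut*, *rpa2*, and *ccne2* in pairs without a detectable difference changed with the scaling of the libraries.

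**Figure D3:**
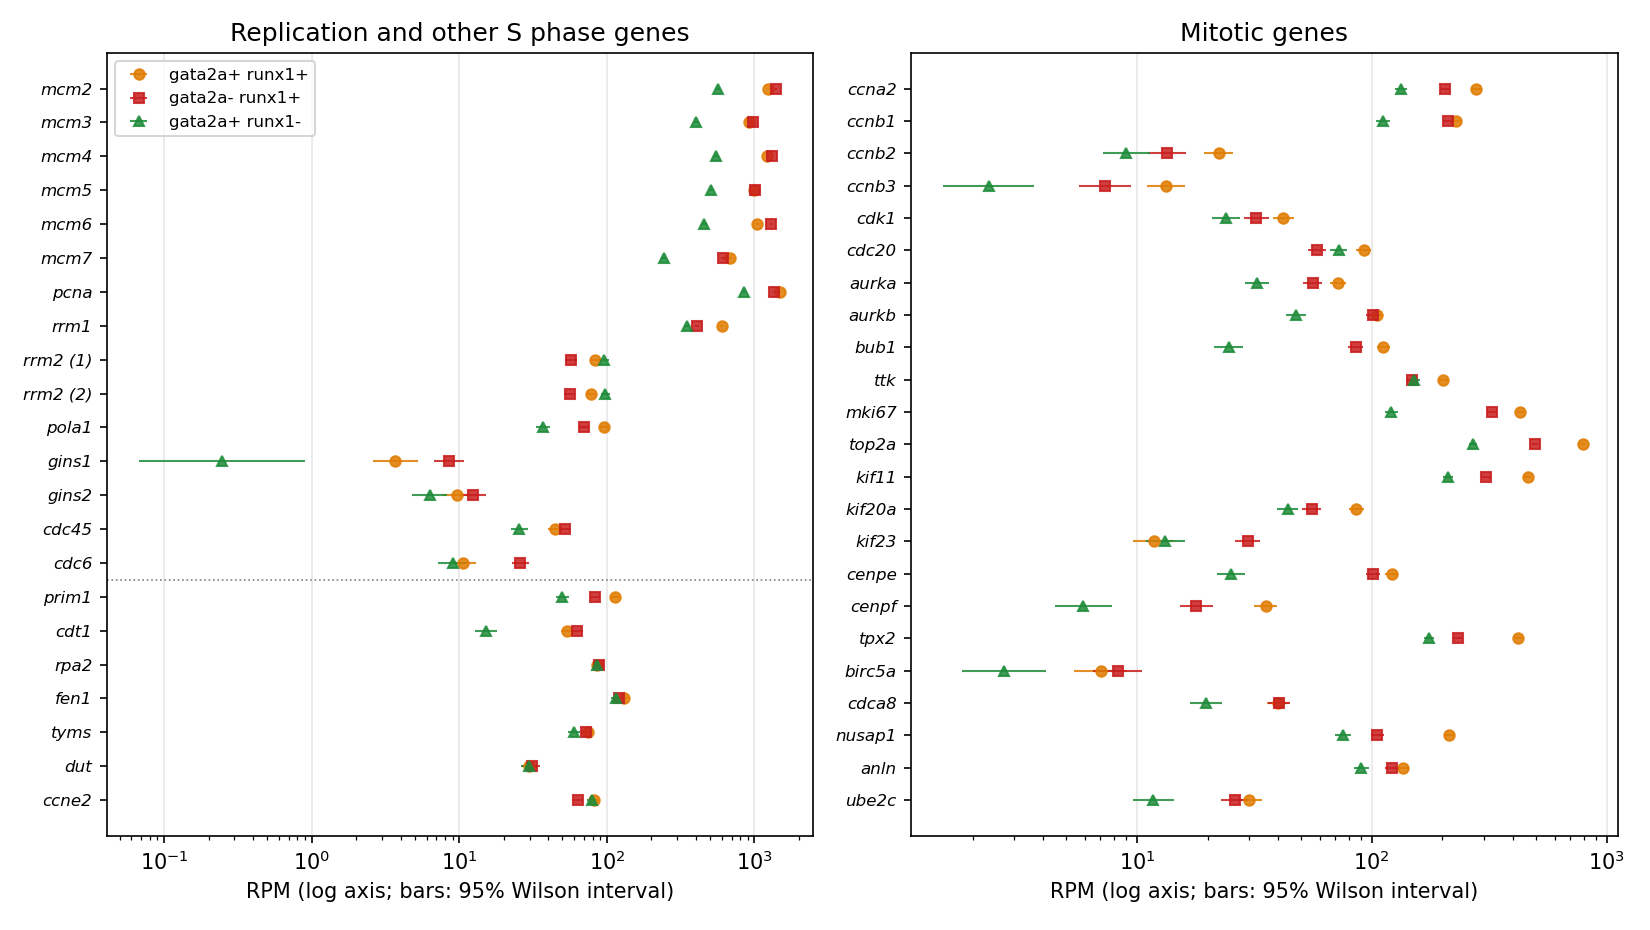
RPM of each gene with a mean of at least 1 RPM in the 3 libraries, on a log axis, for replication and other S phase genes (left, above and below the dotted line) and mitotic genes (right). Each point is 1 library and the bars are 95% Wilson intervals of counting error. The *gata2a*+ *runx1*- points lie lowest for 38 of the 45 genes, and the *gata2a*+ *runx1*+ points lie highest for 20 of the 23 mitotic genes.

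Cyclin A and cyclin B drive entry into mitosis with CDK1. All 5 of these genes were highest in double-positive cells and lowest in *gata2a* single-positive cells. *ccna2* (ENSDARG00000011094) was at 279, 206, and 133 RPM, with a ratio of double-positive to *runx1* single-positive cells of 1.36 (95% counting interval 1.27 to 1.44, adjusted p = 2.09e-20, Fisher's exact test). *ccnb3* (ENSDARG00000034855) was at 13.3, 7.31, and 2.35 RPM. Its ratio was 1.82 between double-positive and *runx1* single-positive cells (1.33 to 2.49, adjusted p = 0.000649, Fisher's exact test), 5.66 between double-positive and *gata2a* single-positive cells (3.48 to 9.22, adjusted p = 1.86e-15), and 3.12 between *runx1* single-positive and *gata2a* single-positive cells (1.86 to 5.22, adjusted p = 1.29e-05). The B type cyclins differed in how far double-positive and *runx1* single-positive cells were apart. *ccnb1* was at 229, 211, and 112 RPM, a ratio of 1.08 between double-positive and *runx1* single-positive cells (1.01 to 1.16). *ccnb2* (ENSDARG00000036180) was at 22.3, 13.4, and 9.02 RPM, a ratio of 1.66 (1.31 to 2.11, adjusted p = 8.66e-05, Fisher's exact test). *cdk1*, their kinase, was at 42.1, 32.3, and 24.0 RPM.

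Of the mitotic roles, spindle genes had the largest median ratio of double-positive to *runx1* single-positive cells, 1.65. The roles were not among the gene lists set for the counts and hold 2 to 6 genes each. Kinetochore genes *cenpe* and *cenpf* were placed with the spindle. Their ratios of 1.20 and 1.97 lay on either side of the spindle median, which is the same without both. The 6 spindle genes ranged from 1.20 to 2.01, and all 6 were called higher by Fisher's exact test, against 34.3% of all genes. *nusap1* (ENSDARG00000002403), a microtubule bundling protein of the spindle, was at 213, 106, and 75.5 RPM, and its ratio of 2.01 (95% counting interval 1.85 to 2.18, adjusted p = 1.99e-65, Fisher's exact test) lay at the 2-fold limit. Against *gata2a* single-positive cells the ratio of double-positive cells was 2.82 (2.57 to 3.09, adjusted p = 4.11e-120, Fisher's exact test). *cenpf* (ENSDARG00000055133), a kinetochore protein, was at 35.3, 17.9, and 5.93 RPM, a ratio of 1.97 (1.62 to 2.41, adjusted p = 4.76e-11) between double-positive and *runx1* single-positive cells, 5.96 (4.39 to 8.09, adjusted p = 2.27e-41, Fisher's exact test) between double-positive and *gata2a* single-positive cells, the largest of all mitotic members in that pair, and 3.02 (2.18 to 4.18, adjusted p = 5.77e-12) between *runx1* single-positive and *gata2a* single-positive cells. *tpx2* (ENSDARG00000078654), which activates Aurora A on spindle microtubules, was at 420, 232, and 176 RPM, a ratio of 1.81 (1.71 to 1.91, adjusted p = 1.43e-97, Fisher's exact test) between double-positive and *runx1* single-positive cells. *cenpe* (ENSDARG00000063385), the kinetochore kinesin, had another shape, at 122, 101, and 25.1 RPM. It was 4.86-fold higher in double-positive cells (4.17 to 5.65, Fisher's exact test, adjusted p = 2.58e-122) and 4.04-fold higher in *runx1* single-positive cells (3.47 to 4.71, adjusted p = 9.69e-88) than in *gata2a* single-positive cells, but only 1.20-fold apart between the *runx1*+ populations. *kif11*, the kinesin that separates the spindle poles, was at 461, 307, and 211 RPM. *aurka* (ENSDARG00000012485), Aurora A kinase, was at 71.8, 56.1, and 32.5 RPM.

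Genes of chromosome structure were also highest in double-positive cells and lowest in *gata2a* single-positive cells. *top2a* (ENSDARG00000024488), topoisomerase II alpha, was at 793, 496, and 270 RPM, with a ratio of double-positive to *runx1* single-positive cells of 1.599 (95% counting interval 1.54 to 1.66, adjusted p = 8.68e-123, Fisher's exact test) and of double-positive to *gata2a* single-positive cells of 2.94 (2.80 to 3.09). *mki67* (ENSDARG00000091150), which coats mitotic chromosomes and encodes the Ki-67 marker of proliferating cells, was at 428, 325, and 121 RPM. It was 3.54-fold higher in double-positive cells (3.29 to 3.80) and 2.69-fold higher in *runx1* single-positive cells (2.50 to 2.89) than in *gata2a* single-positive cells. The adjusted p of Fisher's exact test was 4.12e-172 for the latter ratio of *mki67* and too small to be computed for *top2a* and *mki67* between double-positive and *gata2a* single-positive cells.

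Of the checkpoint kinases and the chromosomal passenger complex, all genes but *ttk* were over 2-fold lower in *gata2a* single-positive cells than in both other populations, of which *cdca8* was at the limit. *bub1* (ENSDARG00000077029), a spindle checkpoint kinase, was at 112, 85.5, and 24.6 RPM, 4.55-fold higher in double-positive cells (95% counting interval 3.90 to 5.31, Fisher's exact test, adjusted p = 8.08e-107) and 3.48-fold higher in *runx1* single-positive cells (2.97 to 4.07, adjusted p = 8.09e-64) than in *gata2a* single-positive cells. *ttk*, the checkpoint kinase Mps1, was instead at 201, 148, and 152 RPM, and *runx1* single-positive and *gata2a* single-positive cells did not differ detectably (ratio 0.978, 0.903 to 1.06, adjusted p = 0.66, Fisher's exact test). The passenger complex corrects attachments of chromosomes. Its kinase *aurkb* was at 105, 101, and 47.6 RPM, *cdca8* (Borealin) at 39.8, 40.2, and 19.6 RPM, and *birc5a* (ENSDARG00000075621, Survivin) at 7.02, 8.29, and 2.72 RPM. None of the 3 differed detectably between the *runx1*+ populations (adjusted p = 0.594, 0.977, and 0.504, Fisher's exact test), and all 3 were over 2-fold higher in both of them than in *gata2a* single-positive cells. The log2 ratio of *cdca8* between double-positive and *gata2a* single-positive cells was 1.02, which falls under the 2-fold limit with TMM or DESeq2 scaling. For *birc5a* the ratio to *gata2a* single-positive cells was 2.58 in double-positive cells (1.58 to 4.22, adjusted p = 0.000289, Fisher's exact test) and 3.05 in *runx1* single-positive cells (1.89 to 4.93, adjusted p = 4.07e-06). *bub1bba* was not matched by symbol. Of the related records, which are not members, *bub1ba* was at 55.4, 42.9, and 18.4 RPM and *bub1bb* at 11.7, 19.3, and 6.55 RPM.

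Genes of cytokinesis and mitotic exit did not share 1 order. *kif20a*, *anln*, and *ube2c* were highest in double-positive and lowest in *gata2a* single-positive cells, whereas *kif23* and *cdc20* were not. *kif23* (ENSDARG00000014943), a kinesin of the central spindle, was at 11.8, 29.6, and 13.2 RPM, high in *runx1* single-positive cells only. Its ratio of double-positive to *runx1* single-positive cells was 0.399 (95% counting interval 0.315 to 0.505, adjusted p = 1.21e-14, Fisher's exact test), that of *runx1* single-positive to *gata2a* single-positive cells 2.24 (1.79 to 2.81, adjusted p = 2.89e-12), and double-positive and *gata2a* single-positive cells did not differ detectably (0.894, 0.679 to 1.18, adjusted p = 0.567). No other mitotic gene was placed lower in double-positive than in *runx1* single-positive cells by the test. *kif20a* (ENSDARG00000044491), another kinesin of the central spindle, was at 85.8, 55.6, and 43.9 RPM, a ratio of double-positive to *runx1* single-positive cells of 1.54 (1.37 to 1.74, adjusted p = 2.89e-12, Fisher's exact test), and *anln*, anillin of the contractile ring, at 136, 121, and 90.2 RPM. *cdc20* (ENSDARG00000100741), the activator of the anaphase promoting complex, was at 92.3, 58.6, and 72.3 RPM, lowest in *runx1* single-positive cells (ratio of double-positive to *runx1* single-positive cells 1.58, 1.40 to 1.77, adjusted p = 3.34e-14, Fisher's exact test, ratio of *runx1* single-positive to *gata2a* single-positive cells 0.811, 0.719 to 0.915, adjusted p = 0.00157). *ube2c* (ENSDARG00000114670), a ubiquitin conjugating enzyme that works with this complex, was at 30.0, 26.1, and 11.7 RPM, a ratio of *runx1* single-positive to *gata2a* single-positive cells of 2.22 (1.75 to 2.83, adjusted p = 1.04e-10, Fisher's exact test). *plk1* was listed at 0 in all 3 libraries, as were *alas2*, *espl1*, and *e2f4*. How these zeros arose in the deposited counting was not tested, and a listed 0 does not show that a gene was not expressed.

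**Figure D4:**
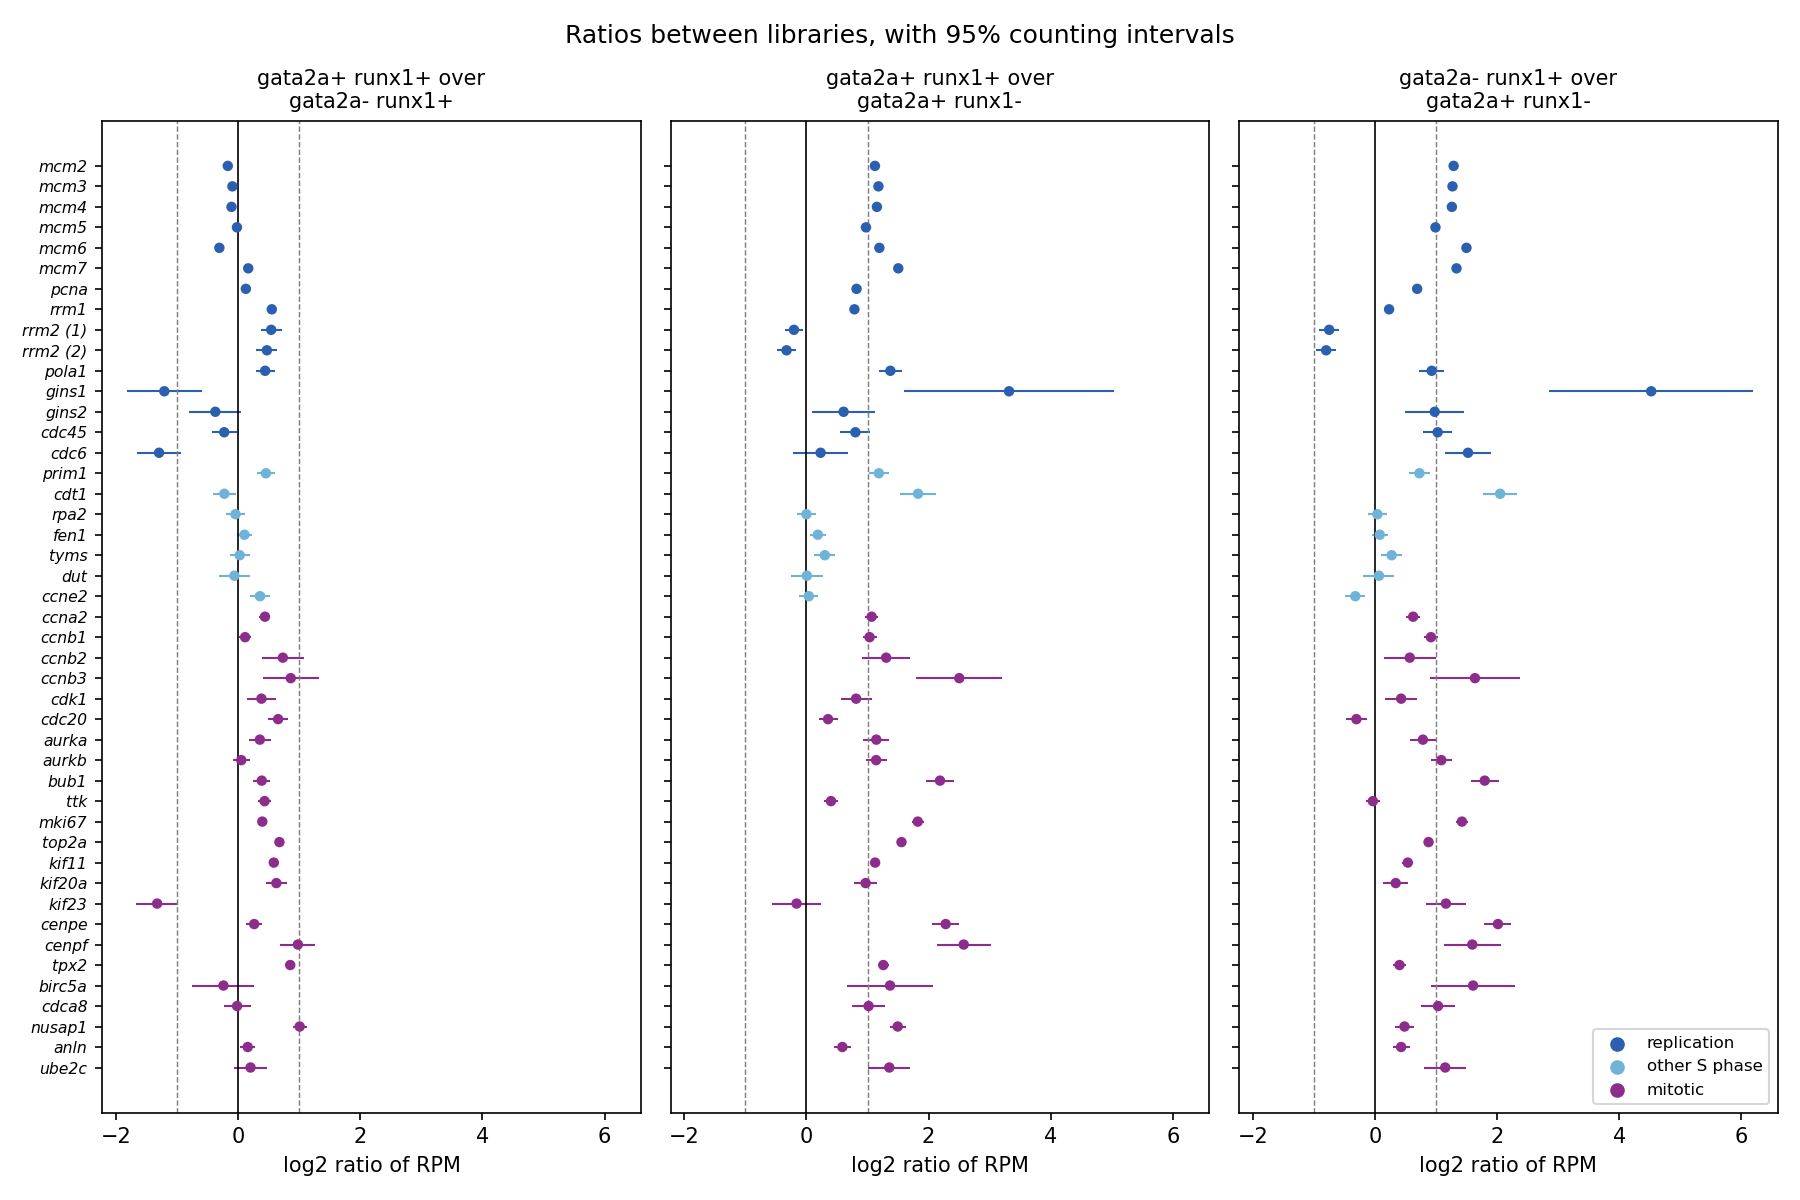
Log2 ratio of RPM for each gene in the 3 pairs of libraries, with 95% counting intervals, coloured by list. The solid line marks no difference and the dashed lines a 2-fold difference; 3 reads or fewer were taken as 3 reads, which concerns *gins1* in *gata2a*+ *runx1*- cells. In the left panel most purple mitotic points lie right of the solid line, with *kif23* at -1.33, while the *mcm* points lie close to it.

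Of the 45 members tested, 38 were lowest in *gata2a* single-positive cells, where 38.5% of all genes tested were lowest, the largest share of the 3 libraries. Among the 23 mitotic genes, 20 were highest in double-positive cells, 3 in *runx1* single-positive cells, and none in *gata2a* single-positive cells. Among the 15 replication genes, 4 were highest in double-positive cells, 9 in *runx1* single-positive cells, and 2 in *gata2a* single-positive cells. Over all genes tested, 31.1%, 31.6%, and 37.4% were highest in the respective library.

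Other genes of the same processes were counted in the same way. The 46 further replication genes (origin recognition, polymerase, clamp loader, and chromatin assembly genes among them) had median log2 ratios of 0.16 between double-positive and *runx1* single-positive cells, 0.65 between double-positive and *gata2a* single-positive cells, and 0.43 between *runx1* single-positive and *gata2a* single-positive cells. By Fisher's exact test, 17 of them were higher and 10 lower between double-positive and *runx1* single-positive cells, where 34.3% and 26.7% of all genes were, so that these counts lay near the share of all genes. Between double-positive and *gata2a* single-positive cells, 36 were higher and 1 lower, against 36.8% and 33.2% of all genes, and between *runx1* single-positive and *gata2a* single-positive cells 32 were higher and 3 lower, against 35.2% and 37.3%. Of these genes, 28 were highest in double-positive cells. The 51 further mitotic genes had medians of 0.51, 1.24, and 0.59, with 35 higher and 1 lower, 43 higher and none lower, and 36 higher and 4 lower in the same pairs, against the same shares of all genes. In this list 42 genes were highest in double-positive cells.

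Single genes of these lists with the largest ratios include *dna2* (ENSDARG00000078759), a nuclease and helicase of Okazaki fragment processing, at 2.34, 8.41, and 1.24 RPM. Its ratio of double-positive to *runx1* single-positive cells was 0.278 (95% counting interval 0.167 to 0.462, adjusted p = 4.2e-07, Fisher's exact test) and that of *runx1* single-positive to *gata2a* single-positive cells 6.81 (3.51 to 13.2, adjusted p = 2.68e-11), so that it had the order of *cdc6* and *gins1*. *rpa3*, a partner of *rpa2*, was at 2.09, 6.46, and 4.82 RPM. *cdc7*, the kinase that activates MCM, was at 21.9, 8.53, and 18.9 RPM and was thus lowest in *runx1* single-positive cells. *tk1*, thymidine kinase, was at 16.9, 12.9, and 2.59 RPM, a ratio of 6.50 between double-positive and *gata2a* single-positive cells (4.11 to 10.3, adjusted p = 4.22e-21, Fisher's exact test). The polymerase epsilon subunit *pole2* was at 60.2, 46.8, and 22.7 RPM, and the clamp loader subunit *rfc3* at 2.71, 4.88, and 1.24 RPM. *gata2a* single-positive cells were lowest for *tk1*, *pole2*, and *rfc3*. However, *rfc3* rested on 22, 40, and 10 reads. Its difference between double-positive and *gata2a* single-positive cells was not detectable (adjusted p = 0.0897, Fisher's exact test).

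Of the further mitotic genes, *ncaph* (ENSDARG00000061468), a condensin subunit, had 178, 110, and 3 reads, or 21.9, 13.4, and 0.371 RPM. It was 59.1 times as high in double-positive cells as in *gata2a* single-positive cells (exact interval 19.9 to 289) and 36.2 times as high in *runx1* single-positive cells (12.1 to 178). *ect2* (ENSDARG00000007278), which activates RhoA in cytokinesis, was at 48.4, 19.6, and 6.42 RPM, and *aspm* (ENSDARG00000103754), a spindle pole protein, at 65.4, 45.8, and 12.4 RPM. Both had the order of most mitotic members. *ckap5* (ENSDARG00000102674), a microtubule polymerase, was at 320, 118, and 121 RPM, a ratio of double-positive to *runx1* single-positive cells of 2.70 (95% counting interval 2.51 to 2.91, adjusted p = 3.37e-171, Fisher's exact test). *troap*, a spindle assembly protein, was at 78.2, 29.7, and 24.8 RPM. *knstrn*, a kinetochore protein, was at 3.45, 1.22, and 4.20 RPM, lowest in *runx1* single-positive cells like *cdc20*.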

How the data were processed

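Reverse-transcribed RNA of sorted cells was amplified by Quartz-Seq, an oligo-dT primed PCR method for whole transcripts that uses no molecular identifiers, and was sequenced from Nextera XT libraries on an Illumina NextSeq instrument. Per the labels and the methods of the study, the authors mapped reads to GRCz11 with HISAT2 2.1.0 and deposited RPM from Subread 1.6.4, rounded to 2 decimals. The annotation release, the use of strand, and the treatment of reads with several matches are not given in the sources used here.

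Whole reads were recovered from the RPM as the total at which the values are whole reads (100% of values within 0.0051 RPM in each library). Symbols came from a table that named 28988 of the 32057 identifiers. The members and gene lists were chosen with earlier results of these data known. Genes given with full values are, in each pair, the 5 replication and 8 mitotic members with the largest absolute log2 ratio and any member against its list's median past 2-fold, and 3 genes of each other list. Among these, 1 gene is left out and not reported here. All other members are named with their RPM. For some of them, such as *ccna2*, *kif20a*, *ttk*, *cdt1*, *prim1*, and *ccne2*, ratios or tests are given too. Those were chosen after their values were seen. Ratios, Wilson intervals, and Fisher's exact tests were computed in scipy 1.17.1 with Python 3.11.15. The steps were tested on simulated data. Alternatives were pseudocounts of 1 and 5, minimum means of 5 RPM and none, fold limits of 1.5 and 3, removal of each library's 20 most-read genes (none of them a member), and scaling by TMM factors of edgeR 4.0.16 or by DESeq2 1.42.0 size factors (R 4.3.3), both used for scaling only. No p-value across genes was computed. Promoter and protein sequences were not analysed here.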

Additional observations from a re-analysis of the deposited data

How the results depend on the processing

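Medians of both lists kept their direction in every pair under the 8 or 9 alternatives run. For mitotic genes they ranged from 0.31 to 0.40 between double-positive and *runx1* single-positive cells, from 1.04 to 1.18 between double-positive and *gata2a* single-positive cells, and from 0.74 to 1.03 between *runx1* single-positive and *gata2a* single-positive cells. Of 207 values under alternatives, 178 stayed within the limits for an unchanged value and 29 moved. Only 51 of the 207 were medians, none of which changed sign, and the others were counts of genes, which have no sign. The size factors of DESeq2 shifted the log2 ratios of all genes by -0.10 between double-positive and *gata2a* single-positive cells.

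Between double-positive and *runx1* single-positive cells, the replication median of -0.09 was -0.18 with TMM factors and -0.17 with DESeq2 size factors. The 2 replication genes over 2-fold lower became 0 on log2(RPM + 5) and at a fold limit of 3, and 1 at a mean of at least 5 RPM. The 1 mitotic gene over 2-fold higher became 0 on log2(RPM + 5), with TMM factors, with DESeq2 size factors, without the 20 genes with the most reads, with the 9 genes listed under lower-case symbols only, and at a fold limit of 3, and 8 at a fold limit of 1.5. The 1 lower became 0 with lower-case symbols only and at a limit of 3. Between double-positive and *gata2a* single-positive cells, the replication median of 0.97 was 0.82 on log2(RPM + 5), 0.90 without a filter and at a mean of at least 5 RPM, 0.87 with DESeq2 size factors, and 0.81 with all DNA synthesis genes. The 7 replication genes over 2-fold higher became 12 at a limit of 1.5 and 1 at a limit of 3. The 17 of 23 mitotic genes became 15 with TMM factors, 14 with DESeq2 size factors, and 5 at a limit of 3. With lower-case symbols only they were 7 of 9. Between *runx1* single-positive and *gata2a* single-positive cells, the replication median of 1.03 was 1.14 with both *rrm2* records summed, which was chosen after seeing the data. Replication genes over 2-fold lower went from 0 to 2 at a limit of 1.5, and those higher from 8 to 1 at a limit of 3. The 10 of 23 mitotic genes became 5 on log2(RPM + 5) and at a limit of 3, and were 5 of 9 with lower-case symbols only. Apart from the stricter or looser limits and the smaller number of genes, the cause was not tested. No replication gene is listed under a lower-case symbol, so this alternative could not be run for them. No paired analysis was possible because each population has 1 library, and no library could be left out.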

Other observations

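A list of genes of the E2F factors, their DP partners, and the pocket proteins, which regulate transcription of S phase genes, gave no common order. The list also held *lin9*, *lin37*, *lin52*, *lin54*, and *rbbp4*, which belong to none of these families. Its counts and medians were not split by family. Of 18 genes tested, 7 were higher and 6 lower in double-positive than in *runx1* single-positive cells by Fisher's exact test (34.3% and 26.7% of all genes), 10 higher and 3 lower in double-positive than in *gata2a* single-positive cells (36.8% and 33.2%), and 9 higher and 2 lower in *runx1* single-positive than in *gata2a* single-positive cells (35.2% and 37.3%), with median log2 ratios of -0.17, 0.48, and 0.37. *e2f5* (ENSDARG00000038812), an E2F that binds pocket proteins, was at 13.1, 0.853, and 0.741 RPM (106, 7, and 6 reads), in the order double-positive, *runx1* single-positive, and *gata2a* single-positive. It was 15.3-fold higher in double-positive than in *runx1* single-positive cells (95% counting interval 7.12 to 32.9, Fisher's exact test, adjusted p = 4.04e-23) and 17.6-fold higher than in *gata2a* single-positive cells (7.73 to 40.1, adjusted p = 9.77e-24). *rbl2*, a pocket protein, was also highest in double-positive cells, at 18.2, 5.61, and 7.17 RPM. *tfdp2* (ENSDARG00000042835), a DP partner, was highest in *runx1* single-positive cells, at 68.1, 182, and 41.8 RPM. *e2f1* was at 8.12, 10.2, and 2.47 RPM and *e2f3* at 191, 263, and 94.5 RPM, both lowest in *gata2a* single-positive cells.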
